A study of Homo sapiens with 2 samples.

Results

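The unfolded protein response has 3 sensor families in the membrane of the endoplasmic reticulum (ER) and a small set of transcription factors and feedback proteins that act below them. The 10 human genes described here are the sensors ERN1 (IRE1), EIF2AK3 (PERK), ATF6 and ATF6B, the transcription factors XBP1, ATF4, DDIT3 (CHOP) and ATF3, and the feedback proteins PPP1R15A (GADD34) and TRIB3. They were chosen by symbol and are 10 of the 61806 Ensembl genes in the deposited count table. All 10 had at least 100 counts in at least 1 library and a deposited FPKM value in both libraries.

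The cells were HEL, a human erythroleukemia cell line labelled as wild type, grown in RPMI with fetal bovine serum. The control culture received 0.5% DMSO, the vehicle, and the treated culture received L1, a diindolylmethane derivative, at 1 µM, both for 24 h, and the labels do not give the DMSO content of the L1 culture. The study examined whether L1 acts on leukemia cells through ER stress. Each condition was sequenced as 1 library of mRNA captured on beads, with 32556872 counts for DMSO and 27135647 for L1, so the spread between cultures was not measured, no test was run and no difference below has a replicate check. Intervals are exact 95% intervals of the counting error in these libraries and cover nothing else. Of the cell type markers examined, all 9 erythroid genes and 5 of 6 megakaryocytic genes were above 1 CPM (TMM-scaled counts relative to library size) in at least 1 library. Their summed levels were 2066 and 2174 CPM in DMSO and 2615 and 1991 in L1. The sums depend on a few genes, such as HBG1 (176 CPM in DMSO and 604 in L1) and ITGA2B (1255 and 1278). The genes of each list did not all differ in the same direction. The megakaryocytic marker PF4 was at 0, as were CD3D and CD3E of T cells and the epithelial marker EPCAM. Other markers of these and further cell types were detected, with CD2 of T cells at 1.78 CPM in DMSO and 1.99 in L1. The epithelial keratin KRT8 was at 10.7 and 8.48 CPM, while CDH1 of the same list had only 6 and 5 counts. The monocyte lysozyme LYZ was at 20.2 and 17.6 CPM. The other monocyte markers had few counts, CD14 with 0 in DMSO and 5 in L1 and CSF1R with 36 and 2. The 3 fibroblast markers were under 1 CPM. The part of such cells in the results was not tested. In RNA from a whole culture, a change in the RNA of each cell and a change in which cells are present cannot be told apart.

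In resting cells the chaperone BIP (HSPA5) is bound to the lumenal side of the sensors, and misfolded proteins draw it away. IRE1 then cuts XBP1 mRNA so that it encodes an active factor, ATF6 travels to the Golgi where proteases release its cytosolic part, and PERK phosphorylates the initiation factor eIF2, which lowers protein synthesis while ATF4 mRNA is translated more. ATF4 induces DDIT3, ATF3, TRIB3 and amino acid genes, and PPP1R15A brings a phosphatase to eIF2 that reverses the phosphorylation. Several of these steps act on RNA processing, translation or protein cleavage, which counts of whole genes do not show.

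The IRE1 target in XBP1 is printed because the gene counts below add up mRNA with and without it. The excised segment, in capitals, lies at chr22:28796127-28796152 on the minus strand of GRCh38, inside the coding sequence. It is 26 bases long, so its removal shifts the reading frame, and of the 7 XBP1 transcripts in GENCODE release 29, 4 hold it and 2 are joined across it.
XBP1 segment: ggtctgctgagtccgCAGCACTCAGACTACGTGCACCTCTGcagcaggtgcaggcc

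The upstream regions of the 3 genes of the set with the highest ratios of L1 over DMSO are printed next, with HSPA5 for comparison, so that known recognition motifs can be seen. The sequences are from RefSeq (GRCh38.p14) and leave out bases annotated as UTR or coding sequence. All 10 genes were matched there, with 16 windows of 300 bases from 250 bases before to 50 after a transcription start. Capitals mark the fixed letters of the ER stress response element (ERSE), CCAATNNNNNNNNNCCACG, of its form without the last base, CCAATNNNNNNNNNCCAC, or of the cAMP response element (CRE), TGACGTCA.
XBP1, chr22:28800598-28800819, minus strand: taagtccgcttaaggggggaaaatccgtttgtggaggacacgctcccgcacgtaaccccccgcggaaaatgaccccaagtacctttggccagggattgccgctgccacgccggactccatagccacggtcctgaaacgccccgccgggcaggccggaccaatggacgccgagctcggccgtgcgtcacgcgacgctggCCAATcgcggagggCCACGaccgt
DDIT3, chr12:57520518-57520709, minus strand: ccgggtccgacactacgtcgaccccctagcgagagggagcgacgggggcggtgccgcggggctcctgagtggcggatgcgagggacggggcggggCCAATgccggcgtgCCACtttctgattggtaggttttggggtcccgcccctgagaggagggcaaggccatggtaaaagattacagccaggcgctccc
PPP1R15A, chr19:48872171-48872391, plus strand: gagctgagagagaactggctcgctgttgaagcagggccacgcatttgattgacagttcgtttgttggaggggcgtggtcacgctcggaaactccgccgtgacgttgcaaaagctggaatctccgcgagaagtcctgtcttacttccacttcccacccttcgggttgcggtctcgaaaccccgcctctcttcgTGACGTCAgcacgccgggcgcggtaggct
HSPA5, chr9:125241344-125241593, minus strand: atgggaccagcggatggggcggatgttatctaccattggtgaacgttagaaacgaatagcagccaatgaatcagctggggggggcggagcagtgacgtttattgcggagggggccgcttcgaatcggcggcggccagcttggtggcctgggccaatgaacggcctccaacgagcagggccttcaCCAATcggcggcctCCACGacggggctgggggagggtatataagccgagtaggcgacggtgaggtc

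Both strands of every window were searched. The full ERSE was found in the XBP1 window, 52 bases before the start, in the HSPA5 window, and in 0.0769% of all 35116 windows. The shorter form, which every full ERSE also contains, was found in addition in the DDIT3 window and in 0.316% of all windows. The CRE was found in the PPP1R15A window, 58 bases before the start, and in 1.85% of all windows. Searches for the core of the C/EBP-ATF response element, TGATGCAA (0.866% of all windows), and of the unfolded protein response element, TGACGTGG (0.729%), found no match in the windows of the 10 genes, and the other 7 genes had no match to any of these motifs. A match is a description of letters in these windows only.

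Across the 10 genes, XBP1 and DDIT3 reached 2-fold higher levels with L1, and no gene was 2-fold lower or beyond. Of the 18123 genes with at least 10 counts in 1 library, 7.12% were 2-fold higher or more and 4.83% were 2-fold lower or more, on a log2 ratio with a prior count of 2 and libraries scaled by the TMM method. Among the 12365 genes with at least 100 counts in 1 library, as all 10 had, the shares were 3.13% and 2.92%. At a threshold of 1.5-fold PPP1R15A was added, where 13.8% of the 18123 genes were higher and 11.4% lower, and 7.38% and 8.22% of the 12365. The median log2 ratio of the 10 genes was 0.090, against -0.004 over the 18123 genes, and their ratios ran from -0.17 to 1.62. The counting interval was above 0 for 4 genes, below 0 for 2 and included 0 for 4, where 26.8% of the 18123 genes had an interval above 0 and 28.6% one below 0 (30.5% and 36.7% of the 12365).

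**Figure D1:**
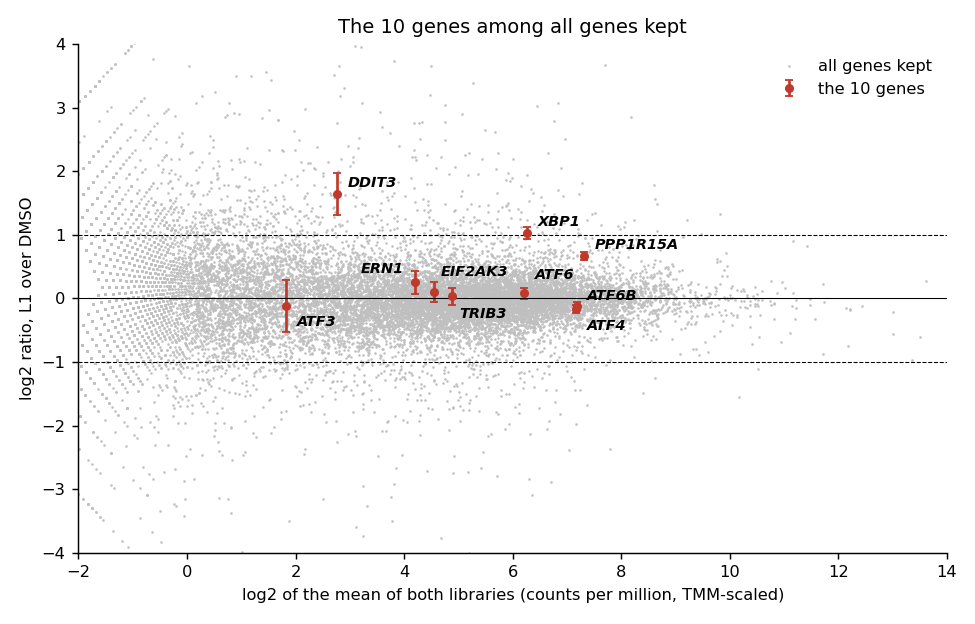
Log2 ratio of L1 over DMSO (y axis) against the log2 of the mean level of both libraries in CPM (x axis, TMM-scaled). Grey points are the 18123 genes kept, with a prior count of 2, of which 364 lie outside the axes, red points are the 10 genes without a prior count with exact 95% counting intervals, and dashed lines mark 2-fold. DDIT3 and XBP1 lie above the upper line, PPP1R15A lies between it and 0, and the other 7 genes lie between -0.17 and 0.25.

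ERN1, EIF2AK3 and ATF6, the best known sensors, differed little between the libraries. ERN1, the kinase and endoribonuclease IRE1, lies on chromosome 17 from 64039142 to 64130819 (GRCh38, as for all positions here) and was counted 537 times with DMSO and 551 times with L1. This equals 0.882 and 1.05 FPKM, for a log2 ratio of 0.25 (95% interval 0.08 to 0.42), and it was the only sensor with an interval above 0. EIF2AK3, which encodes the eIF2 kinase PERK and lies on chromosome 2 from 88556741 to 88627576, was counted 720 times with DMSO and 665 times with L1. Its FPKM was 1.09 and 1.17, and the counting interval of the log2 ratio, 0.10, ran from -0.06 to 0.25. ATF6, the membrane-bound factor on chromosome 1 from 161766294 to 161964070, was counted 2312 times with DMSO and 2111 times with L1. Its FPKM was 5.10 and 5.40, and the counting interval of its log2 ratio, 0.08, ran from -0.004 to 0.17. For PERK and ATF6 the difference between the libraries was thus within counting error, and the upper ends of the intervals correspond to 1.19-fold and 1.12-fold.

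ATF6B, the paralogue of ATF6 with the weaker transactivation domain, was the sensor gene with the highest level per length. It lies in the MHC region of chromosome 6 from 32115264 to 32128253 and was counted 4851 times with DMSO and 3714 times with L1. Its FPKM was 42.0 and 37.3, and its log2 ratio of -0.17 (interval -0.23 to -0.11) was the lowest of the 10 genes. Per length, ATF6B was 8.25 times as high as ATF6 in DMSO and 6.91 times in L1. These ratios depend on the gene lengths behind the FPKM. With the longest coding transcript of each gene as its length, they were 5.99 and 5.03. ATF6 made up 32.3% of the counts of both genes in DMSO (exact interval 31.2 to 33.4) and 36.2% in L1 (35.0 to 37.5), a share that does not depend on how the libraries are scaled.

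XBP1, the substrate of IRE1 and a transcription factor for chaperones and ER-associated degradation, was higher in the L1 library. It lies on chromosome 22 from 28794555 to 28800597 and was counted 1622 times with DMSO and 2853 times with L1. The level per length was 16.9 FPKM in DMSO and 34.4 in L1, and the counting intervals of these levels, 16.0 to 17.7 and 33.1 to 35.6, did not overlap. The ratio was 2.04-fold (interval 1.92 to 2.17), at percentile 93.1 of the 18123 genes, and the interval runs to both sides of 2-fold. XBP1 stayed under 2-fold with DESeq2 size factors and on log2(FPKM + 1), where its log2 ratio was 0.997 and 0.986. XBP1 shares no 31-base word and no exon with any other annotated gene.

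DDIT3 encodes CHOP, a factor that is known for promoting cell death when ER stress persists, and had the largest ratio of the 10 genes. It lies on chromosome 12 from 57516588 to 57521737 and was counted 106 times with DMSO and 284 times with L1. The level per length was 2.55 FPKM in DMSO (interval 2.09 to 3.09) and 7.92 in L1 (7.03 to 8.90), and these intervals did not overlap. The ratio was 3.11-fold with an interval from 2.48 to 3.92, at percentile 97.0 of the 18123 genes, and DDIT3 was the only gene of the set whose whole interval lay past 2-fold, where 3.02% of the 18123 genes did so upward and 1.93% downward.

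The exons of DDIT3 overlap those of neighbouring genes. Of its exon bases, 27.2% overlap exons of MARS1 on the opposite strand, which was counted 6077 times with DMSO and 6379 times with L1, for a log2 ratio of 0.28. A further 4.44% overlap MBD6 (2360 and 1958 counts, log2 ratio -0.06). The sources used here do not state whether the counting used strand, and the part of these neighbours in the DDIT3 counts was not tested. Summed with AC022506.1, the gene that overlaps it on its own strand, DDIT3 was counted 107 times with DMSO and 285 times with L1.

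ATF4, the factor that PERK controls through translation, was abundant in both libraries. It lies on chromosome 22 from 39519695 to 39522685 and was counted 4829 times with DMSO and 3820 times with L1. Its FPKM was 58.1 in DMSO, the highest of the 10 genes, and 53.3 in L1. The log2 ratio was -0.13 (interval -0.19 to -0.06), so the mRNA was slightly lower in the L1 library. Of the 31-base words of ATF4, 29.7% occur in other annotated genes, and the processed pseudogene ATF4P3 holds 20.2%. ATF4P3 had only 50 and 57 counts, and the sum of both genes had a log2 ratio of -0.12. How reads that match several genes were counted is not given in the sources used here. Their part in the ATF4 counts was not tested.

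ATF3, a stress-induced factor of the same bZIP family, had the fewest counts of the set after treatment. It lies on chromosome 1 from 212565334 to 212620777 and was counted 118 times with DMSO and 94 times with L1. Its FPKM was 0.919 and 0.848, and the log2 ratio, -0.11, carried the widest interval of the 10 genes, from -0.52 to 0.29. At this depth, ratios from 0.697 to 1.22 could not be told from the value measured.

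PPP1R15A encodes GADD34, the stress-inducible subunit that directs protein phosphatase 1 to eIF2, and was higher in the L1 library. It lies on chromosome 19 from 48872392 to 48876057 and was counted 3952 times with DMSO and 5403 times with L1. Its FPKM was 40.6 in DMSO and 64.3 in L1, a ratio of 1.58-fold (interval 1.52 to 1.65), at percentile 88.0 of the 18123 genes. In L1 it was the gene of the set with the highest level per length. TRIB3, a pseudokinase that is a target of ATF4 and CHOP and dampens their activity, lies on chromosome 20 from 362835 to 397559. It was counted 935 times with DMSO and 825 times with L1, with an FPKM of 8.94 and 9.14 and a log2 ratio of 0.03 (interval -0.10 to 0.17), a difference within counting error.

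The levels per length spanned from 0.882 FPKM (ERN1) to 58.1 (ATF4) in DMSO and from 0.848 (ATF3) to 64.3 (PPP1R15A) in L1. In DMSO the order was ATF4, ATF6B, PPP1R15A, XBP1, TRIB3, ATF6, DDIT3, EIF2AK3, ATF3 and ERN1. Neighbours in that order with overlapping counting intervals were ATF6B and PPP1R15A, EIF2AK3 and ATF3, and ATF3 and ERN1. In L1 the order was PPP1R15A, ATF4, ATF6B, XBP1, TRIB3, DDIT3, ATF6, EIF2AK3, ERN1 and ATF3, with overlapping intervals for TRIB3 and DDIT3, EIF2AK3 and ERN1, and ERN1 and ATF3. The order depends on the gene length used. The deposited FPKM imply a length of 19026 bases for ERN1 and 20554 for EIF2AK3, while their longest coding transcripts in GENCODE have 7876 and 4646 bases. With the latter lengths, EIF2AK3 moved above DDIT3 and ERN1 above ATF3 in DMSO, and XBP1 moved above ATF6B and ATF6 above DDIT3 in L1.

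**Figure D2:**
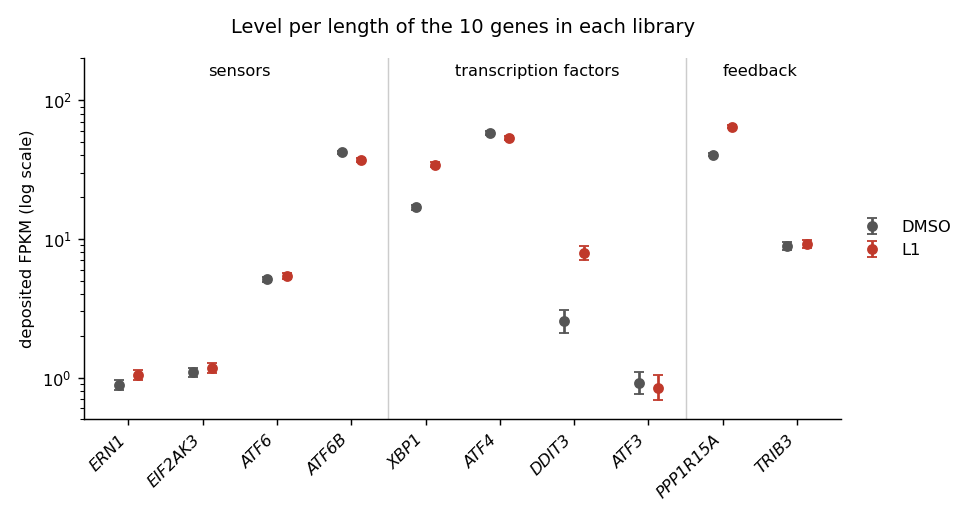
Deposited FPKM on a log scale (y axis) for each of the 10 genes (x axis, by role) in the DMSO library (grey) and the L1 library (red), with bars for exact 95% counting intervals, which are smaller than the point for abundant genes. XBP1, DDIT3 and PPP1R15A have clearly separate red and grey points, and ATF4 and ATF6B are slightly lower in L1.

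The counts of the 10 genes together summed to 19982 with DMSO and 20320 with L1, which gives a log2 ratio of 0.24 (interval 0.21 to 0.27). Within each library, the share of XBP1 among them was 8.12% in DMSO and 14% in L1, and that of PPP1R15A was 19.8% and 26.6%. DDIT3 made up 0.530% in DMSO and 1.40% in L1. The shares of ATF4 (24.2% in DMSO, 18.8% in L1) and ATF6B (24.3% and 18.3%) were lower in the L1 library. Set against ATF4 alone, DDIT3 took 2.15% of the counts of both genes in DMSO (interval 1.76 to 2.59) and 6.92% in L1 (6.16 to 7.74). XBP1 took 25.1% (24.1 to 26.2) and 42.8% (41.6 to 44.0) of the counts of XBP1 and ATF4. Per length, ATF4 was 22.8 times as high as DDIT3 in DMSO and 6.73 times in L1, and 3.45 and 1.55 times as high as XBP1. With the longest coding transcripts as lengths, ATF4 was 24.1 and 7.11 times as high as DDIT3. Against XBP1 it was then 2.73 and 1.23 times as high.

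**Figure D3:**
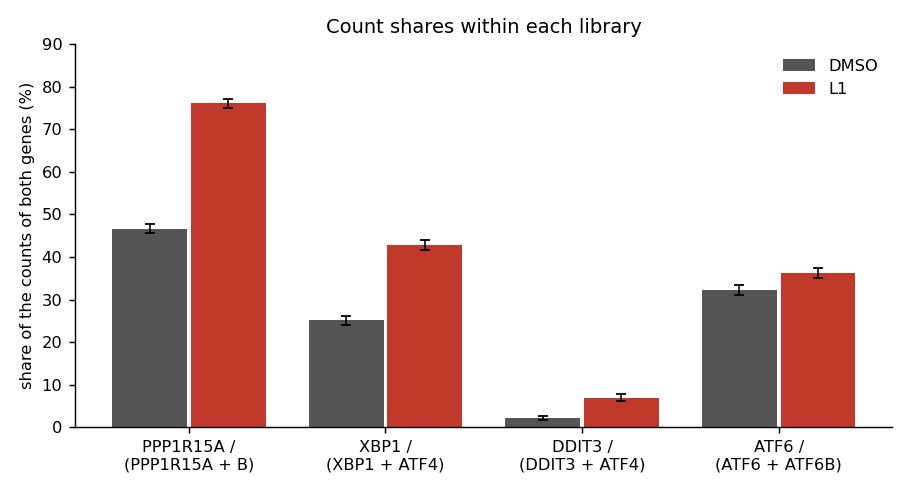
Share of the counts of a gene pair taken by the gene named on top (y axis, percent) in the DMSO library (grey) and the L1 library (red), with exact 95% binomial intervals. PPP1R15A goes from 46.6% to 76.0% of PPP1R15A and PPP1R15B, XBP1 from 25.1% to 42.8%, DDIT3 from 2.15% to 6.92% and ATF6 from 32.3% to 36.2%.

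The 2 scaffold subunits of the eIF2 phosphatase differed between the libraries in opposite directions. PPP1R15B encodes CReP, the constitutive scaffold, and was counted 4520 times with DMSO and 1702 times with L1. Its FPKM was 15.2 with DMSO and 6.65 with L1, and the log2 ratio was -1.20 (interval -1.28 to -1.12). PPP1R15A accounted for 46.6% of the counts of both genes in DMSO (45.6 to 47.7) and 76.0% in L1 (75 to 77). The summed counts of both genes, 8472 and 7105, had a log2 ratio of -0.04 with an interval from -0.09 to 0.005. Per length, PPP1R15A was 2.66 times as high as PPP1R15B in DMSO and 9.67 times in L1. With the longest coding transcripts as lengths, it was 1.92 and 6.98 times as high.

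In the kinase and tribbles families, the shares of EIF2AK3 and TRIB3 differed by about 1 percentage point. PERK was the least abundant of the 4 eIF2 kinases per length, with EIF2AK1 (HRI, the heme-regulated kinase of erythroid cells) 41.9 times as high in DMSO and 36.3 times in L1. These values depend on the long FPKM length of EIF2AK3, and with the longest coding transcripts EIF2AK1 was 11.6 and 10.01 times as high, EIF2AK4 4.13 and 3.45 times and EIF2AK2 2.87 and 2.13 times. In counts, EIF2AK3 made up 4.31% of the 4 kinases in DMSO (4.0 to 4.6) and 5.18% in L1 (4.8 to 5.6). The double-stranded RNA kinase EIF2AK2 (PKR) was counted 4460 times with DMSO and 3057 times with L1, for a log2 ratio of -0.33 (interval -0.40 to -0.27). TRIB3 took 11.0% of the counts of the 3 tribbles genes in DMSO (10.3 to 11.7) and 9.92% in L1 (9.29 to 10.6).

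**Figure D4:**
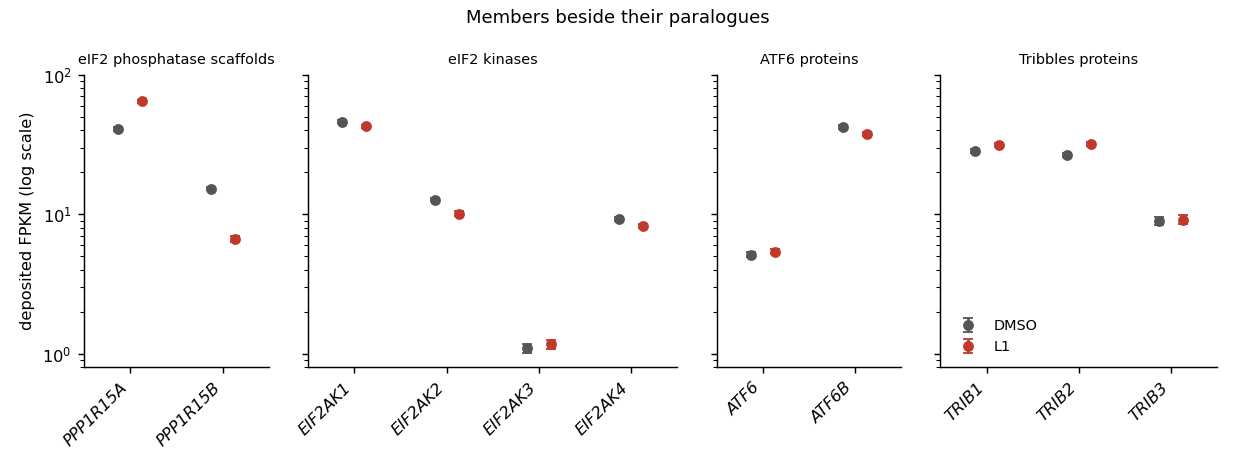
Deposited FPKM on a log scale (y axis) of members of the set beside their paralogues (x axis) in 4 families, in the DMSO library (grey) and the L1 library (red), with exact 95% counting intervals. PPP1R15A is higher and PPP1R15B lower in L1, and each other eIF2 kinase is at least 7.04 times as high as EIF2AK3 in both libraries, or at least 2.13 times with the longest coding transcripts as lengths.

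Proteins that process the sensors, or that act with or below them, were described as a list of 13 genes. Among them are the Golgi proteases MBTPS1 and MBTPS2 that cut ATF6, the NF-Y subunits that bind the CCAAT part of the ERSE, and the RTCB ligase complex that joins XBP1 after the cut by IRE1. None differed by 2-fold, and the median log2 ratio was 0.013 (-0.018 with DESeq2 size factors). The intervals were above 0 for 3 genes, below 0 for 3 and included 0 for 7. By comparison, 7.12% of the 18123 genes rose 2-fold or more and 4.83% fell as far. Their intervals were above 0 for 26.8% and below 0 for 28.6%. Among the 12365 genes with 100 or more counts in 1 library, as all 13 had, these shares were 3.13%, 2.92%, 30.5% and 36.7%. In the direction of the median, DDX1, a helicase of the ligase complex, had the highest log2 ratio at 0.33 (8232 counts against 8913), followed by ZBTB8OS, the archease cofactor of the ligase, at 0.15, and TRAF2, the adaptor of IRE1 signalling, at 0.13. The lowest was QRICH1, a transcriptional regulator of the PERK branch, counted 3705 times with DMSO and 2005 times with L1, with a log2 ratio of -0.67. QRICH1 was chosen after its value was seen.

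A list of 20 genes of eIF2 control held 1 gene that was 2-fold lower or beyond, PPP1R15B, and none as far in the other direction. Of the 18123 genes, 4.83% were lower and 7.12% higher by that much. Among the 12365 genes with at least 100 counts in 1 library, as all 20 had, the shares were 2.92% and 3.13%. Its median log2 ratio was -0.046, and 0.004 with scaling by total counts. Intervals were above 0 for 4 genes and below 0 for 9, against 26.8% and 28.6% of the 18123 genes (30.5% and 36.7% of the 12365). The 9 below 0 included those of DELE1 (log2 ratio -0.47), which relays mitochondrial stress to HRI, and of EIF2AK2. The 5 subunits of eIF2B and the 3 of eIF2 lay between -0.18 and 0.18. DNAJC3 (P58IPK), an inhibitor of PERK, was higher with L1, counted 1560 times with DMSO and 2226 times with L1, with a log2 ratio of 0.73 (interval 0.63 to 0.82). DNAJC3 was named after its value was seen and is also in the next list.

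Most targets of ATF6 and XBP1 were higher in the L1 library. Of 28 genes, 26 passed the minimum of 10 counts, with DERL3 and WFS1 below it. Among the 26, 4 reached 2-fold higher levels and none was lower by that much, 20 had an interval above 0 and 4 one below, and the median log2 ratio was 0.45. Over the 18123 genes, 7.12% were 2-fold higher, 4.83% were 2-fold lower, 26.8% had an interval above 0 and 28.6% one below, and the median was -0.004. Over the 12365 genes with at least 100 counts in 1 library, as all 26 had, these shares were 3.13%, 2.92%, 30.5% and 36.7%. HSPA5, the chaperone BIP that holds the sensors inactive and whose upstream region is printed above, was counted 6430 times with DMSO and 16325 times with L1, with an FPKM of 31 and 91.2 and a log2 ratio of 1.56 (interval 1.52 to 1.60). The others past 2-fold were HSP90B1 (GRP94, log2 ratio 1.33), CRELD2 (1.02, 225 counts in DMSO and 393 in L1) and CALR (1.01), the calcium-binding chaperone calreticulin, which was named after its value was seen. The counting intervals of CRELD2 (0.78 to 1.26) and CALR (0.98 to 1.03) run to both sides of 2-fold. The 4 genes with an interval below 0, also named after their values were seen, were CANX (calnexin, the membrane-bound partner of calreticulin), with 28632 and 13290 counts and a log2 ratio of -0.89, SYVN1 (-0.59), the ubiquitin ligase of ER-associated degradation, DNAJC10 (-0.20) and SERP1 (-0.05). The list was chosen with results of these libraries known, so its direction is not independent evidence.

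The targets of ATF4 and CHOP outside the set had a median below 0. The members, among them DDIT3 (log2 ratio 1.63), PPP1R15A (0.66), TRIB3 (0.03) and ATF3 (-0.11), were not in this list. The list was chosen with results of these libraries known, so its direction is not independent evidence. Of 38 genes, 34 passed the minimum of 10 counts, while NUPR1, STC2, FGF21 and TNFRSF10B were below it. The median log2 ratio of the 34 was -0.12, with 6 intervals above 0 and 18 below 0, against 26.8% and 28.6% of the 18123 genes (30.5% and 36.7% of the 12365 with at least 100 counts). By 2-fold or more, 1 of the 34 was higher and 1 lower, where 7.12% of the 18123 genes were higher and 4.83% lower. At least 2-fold higher was DDIT4 (REDD1, an inhibitor of mTORC1), counted 178 times with DMSO and 355 times with L1. Its log2 ratio was 1.21, and DDIT4 was named after its value was seen. At least 2-fold lower was GPT2, a mitochondrial alanine transaminase, counted 711 times with DMSO and 168 times with L1, with a log2 ratio of -1.87. CBS, of cysteine synthesis, followed with -0.88 and the bZIP factor JDP2 with -0.72. Asparagine synthetase (ASNS) was counted 1676 times with DMSO and 983 times with L1, for a log2 ratio of -0.56, and CHAC1, a glutathione-degrading enzyme, had 139 and 109 counts and a log2 ratio of -0.14 (interval -0.51 to 0.23). ASNS and CHAC1 were named after their values were seen, as classical targets of ATF4 and CHOP. Besides DDIT4, the intervals above 0 were those of GDF15 (log2 ratio 0.36), XPOT (0.32), WARS1 (0.27), SLC3A2 (0.25) and SLC7A5 (0.21), also named after their values were seen.

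**Figure D5:**
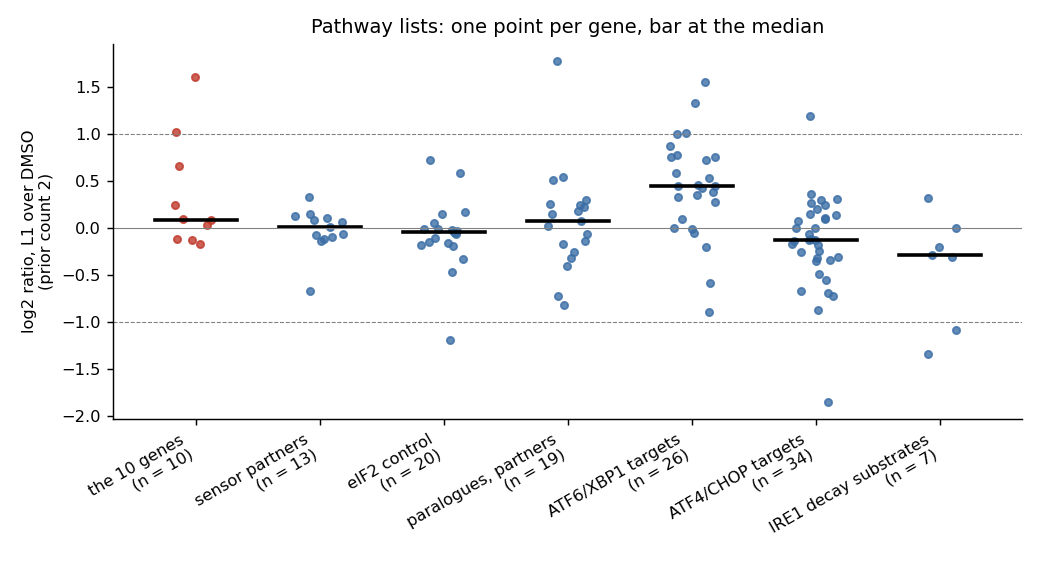
Log2 ratio of L1 over DMSO with a prior count of 2 (y axis) for the genes of each list that passed the minimum of 10 counts (x axis, with their number), 1 point per gene, a black bar at the list median and dashed lines at 2-fold. The medians are 0.090 for the 10 genes, 0.45 for the targets of ATF6 and XBP1 and -0.12 for those of ATF4 and CHOP, and horizontal scatter within a list has no meaning.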

How the data were processed

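RNA of HEL cells treated with 0.5% DMSO or with 1 µM L1 for 24 h was sequenced, 1 library per condition. The authors' processing notes name fastp, HISAT2 2.1.0, StringTie and hg38. The gene annotation, the counting program and its strand setting are not given in the sources used here. The authors deposited raw read counts for 61806 genes, which are not normalized, and FPKM values for 13924 genes. The FPKM carry the same ratio between libraries (1.16) as the library sizes after TMM scaling over all genes.

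Libraries were scaled by TMM (edgeR 4.0.16, R 4.3.3), with size factors of DESeq2 1.42.0 as an alternative. Genes with at least 10 counts in 1 library were kept. Lists and thresholds rest on ratios with 2 added as a prior count, while ratios of single genes had no prior and carry an exact 95% Clopper-Pearson interval of the split of the counts. Intervals of FPKM scale an exact Poisson interval of the count. Having 1 library per condition, the design allows no test. Intervals cover counting error only, and reads are not independent molecules. Total counts were 32556872 (DMSO) and 27135647 (L1). Intervals and figures were made in Python 3.11.15 (scipy 1.17.1, matplotlib 3.10.9), and the scripts were tested on simulated libraries.

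Positions, exon overlaps and 31-base words, compared in both orientations, were taken from GENCODE release 29 (GRCh38), where 58254 deposited identifiers were found. The members and gene lists were chosen with earlier results of these data known. Named were all members, HSPA5, and in each list the 3 genes with at least 100 counts in the higher library that were farthest in the direction of the list median, and other genes are marked as chosen after their values were seen. The values of 1 marker list are not reported here. Alternatives were other scalings, prior counts, filters and thresholds, the FPKM values, merged loci and another gene length.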

Additional observations from a re-analysis of the deposited data

How the results depend on the processing

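No paired analysis was possible because neither culture was sequenced more than once. The number of the 10 genes at least 2-fold higher, 2, became 1 with DESeq2 size factors, with log2(FPKM + 1) and with the whole 95% counting interval past 2-fold, and in each case XBP1 was the gene lost, since its ratio lies at the threshold. None was at least 2-fold lower under any alternative run. All 60 recomputed ratios of the 10 genes, under 3 scalings, both FPKM scales and merged loci, lay within the counting intervals. No sign turned where an interval excluded 0. These alternatives are not independent checks. The FPKM carry the TMM-scaled ratios until a constant is added, a scaling shifts all ratios alike, and merging changed only ATF6B and DDIT3. The median of the 10 genes stayed between 0.059 and 0.14, the median of XBP1 and ATF6 targets between 0.42 and 0.50, and the median of CHOP and ATF4 targets between -0.15 and -0.074. The median of the eIF2 control list changed from -0.046 to 0.0041 with total counts, which shifts every ratio upward.

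Over all genes, the numbers at least 2-fold higher and lower, 1290 and 876, moved with the filter, to 3544 and 1811 without one, 694 and 491 where both libraries needed 10 counts, and 387 and 361 with at least 100 in 1 library. They were 348 and 298 with log2(FPKM + 0.1), 199 and 153 with log2(FPKM + 1), 2506 and 2065 at 1.5-fold, and 547 and 350 with the whole interval past 2-fold. The gene length used for levels per length was changed after the data were seen. Depth limits ATF3 and DDIT3 most, with at most 118 and 284 counts.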

Other observations

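Genes of a mitochondrial route that acts on eIF2 without the ER sensors gave the following values. In mitochondrial stress, the protease OMA1 cuts DELE1 so that it activates HRI (EIF2AK1). OMA1 was counted 889 times with DMSO and 672 times with L1 (log2 ratio -0.19, interval -0.34 to -0.04), DELE1 had 4547 and 2832 (-0.47, interval -0.54 to -0.40), and EIF2AK1 had 8014 and 6404 (-0.11, interval -0.16 to -0.06). The choice of OMA1 and EIF2AK1 was made after seeing their values. An interval below 0 was found for 28.6% of the 18123 genes and one above for 26.8%. For the 12365 genes with at least 100 counts in 1 library, as these genes had, the shares were 36.7% and 30.5%. The activity of this route was not tested.

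Among 22 paralogues and dimer partners of the 10 genes, 19 passed the minimum of 10 counts, with ERN2, CREB3L3 and CEBPE below it. Their median log2 ratio was 0.077, with 7 intervals above 0, 7 below 0 and 5 that included 0. Of the 18123 genes, 26.8% had an interval above 0 and 28.6% one below. In the direction of the median and with at least 100 counts, NFE2L2, the antioxidant factor NRF2, had 0.52, BATF 0.31 (interval -0.04 to 0.66) and CREB1 0.26. The lowest with at least 100 counts were JDP2 (-0.72) and ATF7 (-0.41), named here after their values were seen. CEBPA, a granulocytic factor that can pair with CHOP, was the only one of the 19 that differed by 2-fold or more. It was counted 14 times with DMSO and 46 times with L1, with a log2 ratio of 1.93 (interval 1.04 to 2.91). CEBPA was named after its value was seen. By comparison, 7.12% of the 18123 genes rose 2-fold or more and 4.83% fell as far.

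Of 7 mRNAs known as substrates of the decay activity of IRE1, 5 had an interval below 0 and 1 had an interval above 0, with a median log2 ratio of -0.29. Of the 18123 genes, 28.6% had an interval below 0 and 26.8% one above. The shares were 36.7% and 30.5% of the 12365 genes with at least 100 counts in 1 library, as all but PDGFRB had. The interval above 0 was that of PER1 (log2 ratio 0.33, interval 0.19 to 0.46), and COL6A1 was at 0.001, both named after their values were seen. SCARA3 was counted 233 times with DMSO and 94 times with L1 (log2 ratio -1.10, interval -1.46 to -0.75), BLOC1S1 had 801 and 560 (-0.30, interval -0.46 to -0.15), and HGSNAT had 1127 and 796 (-0.29, interval -0.42 to -0.16). PDGFRB, named after its value was seen, had only 15 and 4 counts and a log2 ratio of -1.69 (interval -3.74 to -0.04). Decay by IRE1 was not tested.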
